A study of Mus musculus with 2 samples.

Results

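Rab GTPases are the largest branch of the Ras superfamily, and each directs a step of membrane traffic. A Rab is prenylated at its C terminus, is delivered to a particular membrane, is switched on there by an exchange factor and recruits effectors, and is switched off by a GTPase-activating protein before it is extracted again. In the testis such traffic serves the turnover of Sertoli cell junctions, secretion by the somatic cells and, later, the building of the acrosome by germ cells. The Rab genes described here are the protein-coding mouse genes whose symbol is Rab, a number and at most one letter from a to e and one further digit. They number 59 among 21883 protein-coding genes on the assembled chromosomes of the RefSeq annotation of GRCm38.

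ARID4B carries an AT-rich interaction domain and belongs to the corepressor complex built on SIN3 and histone deacetylases. Its occupancy was measured by ChIP-seq in testes of wild type mice (hybrids of C57BL6/J and 129/SvEv) at postnatal day 1.5. Chromatin from a pool of 108 testes gave 1 ChIP library, made with an antibody against ARID4B, and 1 input library without antibody served as the control. The authors deposited 6632 enriched intervals for the ChIP library, each with a score of theirs that runs from 70.02 to 1760.61 and is used here only to rank intervals within this list. There was no replicate, and no testes lacking ARID4B were among the samples, so no test over samples exists and every count below is a description. The depth of both libraries is unknown here, values of the input library were not used here, and in whole testes an interval cannot be assigned to a cell type.

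A gene was counted as carrying an interval when at least 1 bp of an interval fell in its annotated record or in the 1000 bp either side. ARID4B intervals were found at 23 of the 59 Rab genes (39.0%), against 30.7% of all protein-coding genes counted the same way. The remaining 36 had none. Carriers came from every stage of membrane traffic, from Rab1a at the exit of the endoplasmic reticulum to Rab7 at the late endosome. Genes without one included widely expressed members such as Rab5b, Rab11b and Rab18 as well as the epithelial Rab17 and Rab25.

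The promoters of 3 Rab genes with high-scoring intervals and of 1 Rab gene without an interval are shown first. The reason is that 21 of the 23 intervals had their midpoint within 1000 bp of a listed start of the Rab gene. Each stretch runs from 250 bases before a listed start to 50 bases after it, in the direction of transcription, from RefSeq on GRCm38.p6. They lie at chr11:78188498-78188797 on the plus strand (Rab34, the downstream of its listed starts), chr2:35201071-35201370 on the minus strand (Rab14), chr7:100607336-100607635 on the plus strand (Rab6a) and chr9:103111824-103112123 on the plus strand (Rab6b). Capitals mark matches, on either strand, to the 7 short motifs spelled out further on.
Rab34: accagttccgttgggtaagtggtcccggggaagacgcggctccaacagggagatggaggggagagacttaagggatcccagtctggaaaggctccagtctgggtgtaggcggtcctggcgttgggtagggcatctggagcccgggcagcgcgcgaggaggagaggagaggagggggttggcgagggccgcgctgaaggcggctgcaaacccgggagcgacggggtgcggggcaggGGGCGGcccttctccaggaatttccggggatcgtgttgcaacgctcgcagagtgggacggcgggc
Rab14: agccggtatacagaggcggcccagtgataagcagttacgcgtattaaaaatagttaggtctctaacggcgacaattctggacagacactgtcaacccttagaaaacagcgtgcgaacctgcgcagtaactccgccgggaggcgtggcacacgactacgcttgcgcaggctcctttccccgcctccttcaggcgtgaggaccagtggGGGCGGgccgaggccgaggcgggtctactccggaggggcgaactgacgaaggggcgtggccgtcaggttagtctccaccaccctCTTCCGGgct
Rab6a: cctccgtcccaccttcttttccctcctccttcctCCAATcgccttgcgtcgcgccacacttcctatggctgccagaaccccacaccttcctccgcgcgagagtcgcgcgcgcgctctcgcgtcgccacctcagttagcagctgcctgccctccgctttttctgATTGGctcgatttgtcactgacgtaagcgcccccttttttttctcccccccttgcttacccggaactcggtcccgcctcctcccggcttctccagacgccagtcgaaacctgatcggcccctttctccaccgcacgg
Rab6b: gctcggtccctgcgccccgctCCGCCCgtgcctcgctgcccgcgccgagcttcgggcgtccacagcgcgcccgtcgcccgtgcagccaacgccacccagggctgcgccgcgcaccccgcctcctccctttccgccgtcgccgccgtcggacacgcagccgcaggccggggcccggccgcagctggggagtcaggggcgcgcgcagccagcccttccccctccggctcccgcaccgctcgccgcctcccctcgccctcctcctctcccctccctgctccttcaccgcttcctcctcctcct

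The Rab34 stretch lay wholly inside its ARID4B interval (300 bp), that of Rab14 had 296 bp inside and that of Rab6a 101 bp. Rab6b had no interval nearer than 119 kb. All these stretches were rich in CpG: 25 CpG dinucleotides at Rab34, 27 at Rab14, 29 at Rab6a and 42 at Rab6b. The Rab6b promoter without an interval was therefore the most CpG-rich of those shown. In the capitals, Rab34 held 1 GGGCGG, Rab14 held 1 GGGCGG and 1 CCGGAAG, Rab6a held 2 CCAAT and Rab6b held 1 GGGCGG.

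Rabs of the early secretory pathway and the Golgi gave the best-scoring interval of the family. Of 16 such genes 6 (37.5%, with 30.7% over all genes) carried an interval. Rab34, which acts at the Golgi and in the formation of primary cilia, had a score of 348.40 at chr11:78188250-78189802, rank 357 of the 6632 intervals. Rab6a, which governs retrograde traffic from the Golgi, had 232.50 at chr7:100607535-100608584 (rank 1019). Rab1a, the Rab of transport from the endoplasmic reticulum to the Golgi, had 215.03 at chr11:20200973-20202294 (rank 1207), and its close relative Rab1b had 96.58. Both Rab1 genes thus carried an interval, with the score of Rab1a the higher. Rab43, another Golgi Rab, followed with 165.72, and Rab2a, which acts between the endoplasmic reticulum and the Golgi, had 131.38. The others of this group, Rab2b, Rab6b, Rab18, Rab19, Rab30, Rab33a, Rab33b, Rab36, Rab39 and Rab39b, had none.

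Rabs of early and recycling endosomes held 9 carriers among 16 genes (56.2%, with 30.7% over all genes). One of these, Rab5c, counted only through an interval at the start of its neighbour Hspb9. Rab14, which works between the trans-Golgi network and endosomes, had 338.39 at chr2:35199915-35201366 (rank 391). With Rab34 it was one of the 2 Rab genes whose interval ranked in the top 10% of the list. Rab5a, the master regulator of early endosome fusion, had 210.06 at chr17:53478925-53480154 (rank 1269), and Rab31, a relative of Rab5 that links the trans-Golgi network with endosomes, had 203.84 at chr17:65772141-65773198 (rank 1342). Rab11a, the main Rab of recycling endosomes, had 144.14 and Rab5c had 133.18. Lower scores were found at Rab20 (102.34), at Rab21 (96.93), which carries integrins into the cell, and at Rab22a (89.90). Rab35, which sends cargo back to the plasma membrane, had the lowest score of the family, 73.35 at chr5:115631105-115632107 (rank 6331). The unmarked genes here were Rab4a, Rab4b, Rab5b, Rab11b, Rab15, Rab17 and Rab25.

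Among the late endosome and lysosome Rabs an interval was found at 2 of 8 genes (25%, with 30.7% over all genes). They were Rab24, which has been tied to autophagy, with 177.78 at chr13:55321318-55322661 (rank 1783), and Rab7, the Rab of late endosome and lysosome fusion, with 116.66. Rab9, Rab9b, Rab7b, Rab29, Rab32 and Rab38 had none, and of these Rab32 and Rab38 are known from melanosomes. Rab9 and Rab9b lie on the X chromosome, where 3% of all protein-coding genes carried an interval. Whether the groups differ in share was not tested.

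The exocytosis Rabs with an interval had low scores. Of 13 genes 4 (30.8%, with 30.7% over all genes) carried an interval. All 4 lay below the median score of all intervals, 124.98, while 54.4% of all genes with an interval scored above it. Rab10, a Rab of the exocytic and basolateral route, had 98.60 and Rab12 had 95.29. Rab8a, which directs vesicles to the plasma membrane and the cilium, had 77.62 at chr8:72160525-72162028 (rank 5997), and Rab3a, the Rab of regulated exocytosis, had 73.68 at chr8:70754448-70755721 (rank 6309). No interval was found at Rab3b, Rab3c, Rab3d, Rab8b, Rab13, Rab26, Rab27a, Rab27b or Rab37. Of the 6 remaining genes 2 carried one (33.3%, with 30.7% over all genes). Rab28, a Rab of ciliated cells, had 178.68 at chr5:41707490-41708381 (rank 1761), and Rab40c, whose product carries a SOCS box for ubiquitin ligase assembly, had 79.79. Rab23, a negative regulator of Hedgehog signalling, had none, with the nearest interval 14.6 kb from its record, and neither had Rab40b, Rab42 or Rab44.

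**Figure D1:**
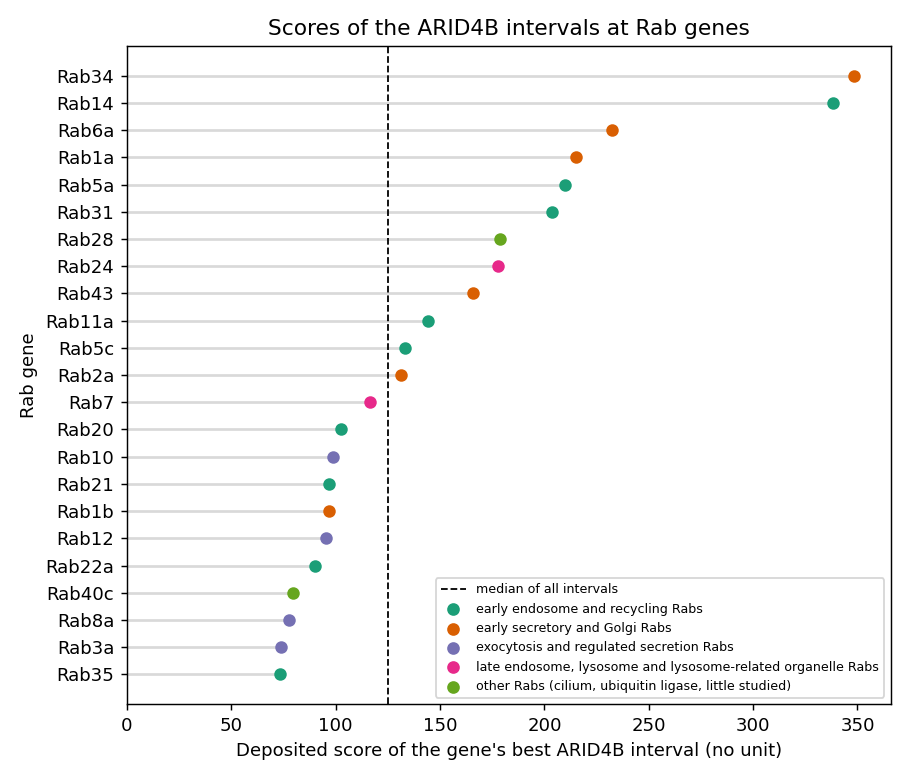
Deposited score (horizontal axis, no unit) of the best ARID4B interval at each of the 23 Rab genes that carried one, coloured by role, with the median of all intervals as a dashed line. Rab34 (348.40) and Rab14 (338.39) stand apart from the rest, which lie between 73.35 and 232.50. Of the 23 genes 12 lie above the median, beside 54.4% of all genes with an interval.

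The median score of Rab genes was close to that of all genes with an interval. It was 131.38 (quartiles 95.9 and 191), beside 131.8 (quartiles 96.6 and 197) for the best intervals of all 6708 genes with one. Interval widths had medians of 1132 bp at Rab genes and 1130 bp at all genes with an interval. Each of the 23 Rab genes had exactly 1 interval, whereas 10.7% of all genes with an interval had more than 1.

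At almost every Rab gene the interval lay over the start of transcription and reached further downstream than upstream. The promoter table lists starts for 48 of the 59 genes, 22 of them with an interval. Rab2a, Rab4a, Rab7b, Rab18, Rab26, Rab27b, Rab30, Rab36, Rab37, Rab38 and Rab44 are not in it. In 21 of these 22 the midpoint of the interval was within 1000 bp of a listed start, against 84.8% of all genes with an interval and a listed start. The midpoint was downstream of the start in 19 of the 22 (77.9% of all such genes) and upstream in Rab35 (-381 bp), Rab3a (-18 bp) and Rab24 (-9 bp). The median position was 234 bp downstream (quartiles 114 and 346 bp), beside 220 bp for all genes (quartiles 36 and 441 bp). Rab12 was the one gene of the 21 whose interval began past the start, 122 bp downstream of it. Counting only intervals that overlap a 300 bp promoter window, 20 of 48 Rab genes (41.7%) carried one, against 25.4% of all genes in the table. Among the 11 Rab genes not in that table, 1 gene (Rab2a) carried an interval in its record or flanks (9.09%, against 30.4% of all genes not in it).

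**Figure D2:**
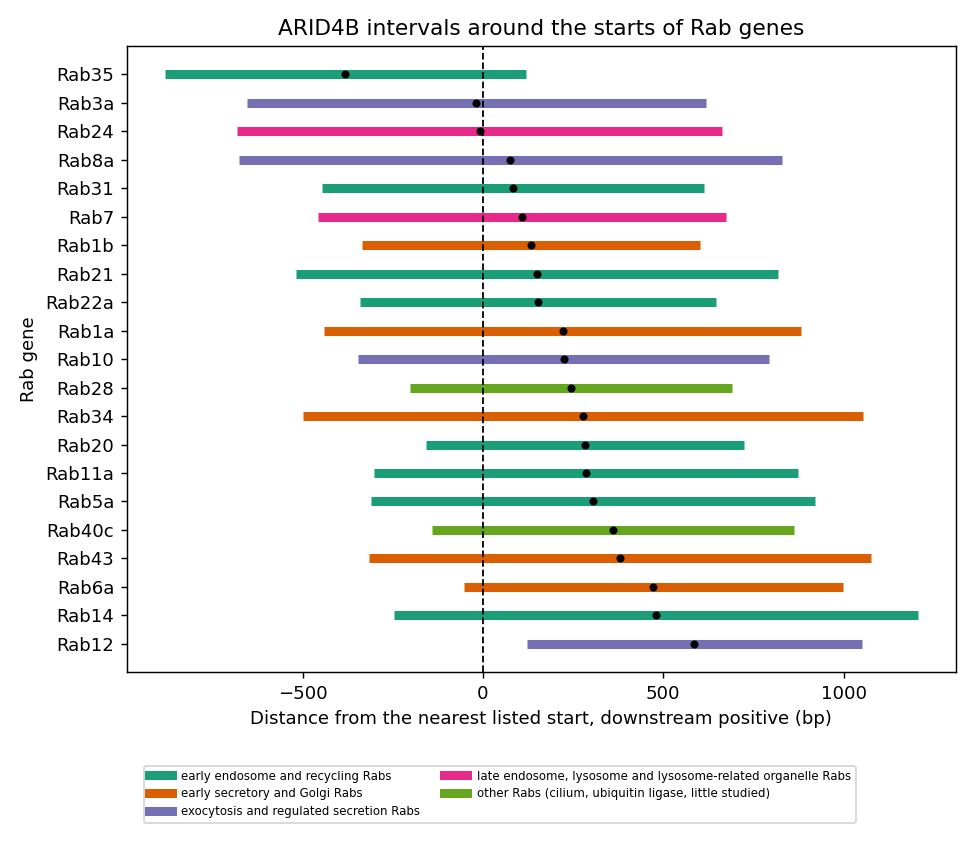
Extent of the ARID4B interval (bars, coloured by role) and its midpoint (black dots) around the nearest listed start (dashed line) of 21 Rab genes, in bp with downstream positive. Midpoints run from -381 bp at Rab35 to 586 bp at Rab12, and 18 of the 21 bars are centred downstream of the start.

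The exception was Rab5c. Its interval at chr11:100713720-100714614 lay 0.39 kb beyond the record and 24048 bp from the start of Rab5c, past the end of the gene. The midpoint was 238 bp downstream of the start of the neighbouring gene Hspb9, a small heat shock protein gene, and the interval counted for Rab5c only through the flank. Without it 22 Rab genes carried an interval. Shared intervals were found at 3 other Rab genes, where the interval also reached the record or flank of a neighbour. At Rab6a the midpoint was 473 bp downstream of its own start and 242 bp downstream of that of Mrpl48, a mitochondrial ribosomal protein gene. At Rab24 it was 9 bp upstream of its own start and 66 bp upstream of that of Prelid1, so that both starts lay under the same interval. The Rab1b interval also reached Klc2, a kinesin light chain gene. The other 19 Rab intervals touched no second protein-coding gene, and 28.5% of all genes with an interval shared their best one.

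Several Rab genes without an interval had one close by that lay at another gene. The nearest to the limit of 1000 bp was Rab40b, with an interval 1.06 kb from its record (score 95.93) that reached Wdr45b. Next were Rab4b, 1.50 kb away (145.42, 408 bp downstream of the start of Egln2, a prolyl hydroxylase gene), Rab19, 2.84 kb away (92.30, at Slc37a3), and Rab25, 4.14 kb away (211.45, at Lamtor2 and Ubqln4). Their distances from the starts of these Rab genes were larger still, with midpoints between -5261 bp (upstream, Rab25) and 33809 bp (downstream, Rab40b). Rab36 had an interval 6.16 kb away, at Bcr. The other unmarked Rab genes on autosomes were 14.6 kb or more from any interval, with a median over all 32 unmarked autosomal genes of 29.5 kb. Rab38 was the farthest on an autosome at 912 kb.

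All 4 X-linked Rab genes, Rab9, Rab9b, Rab33a and Rab39b, lacked an interval, and the nearest was 218 kb from Rab9. The X chromosome held 29 of the 6632 intervals, and 3% of its 966 protein-coding genes carried one. Male cells hold a single X chromosome, and the part this plays in the X-linked values was not tested. On the autosomes 23 of 55 Rab genes (41.8%) carried an interval, against 32.3% of all autosomal protein-coding genes.

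Counts were also taken within classes of record length, since a longer record offers more room for an interval. Of 10 Rab genes with a record under 10 kb, 4 carried an interval (20.3% of all genes of that length). The share was 15 of 36 for records of 10 to 50 kb (33.3% of all genes) and 4 of 13 for records over 50 kb (42.5% of all genes). Above 50 kb the Rab share (30.8%) was thus below the background and in the shorter classes (40.0 and 41.7%) above it. The longest Rab records, Rab3c at 227 kb and Rab27b at 163 kb, had no interval, while Rab31 at 121 kb had 1 at its start.

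Some sets of paralogous Rab genes were mixed, with an interval at some members and none at others. Of 16 sets of close relatives, 2 had an interval at every member (Rab1a with Rab1b, and Rab22a with Rab31), 6 had none at any (the Rab4, Rab9, Rab27, Rab33 and Rab39 pairs, and Rab29 with Rab32 and Rab38), and 8 were mixed. With an interval at 39.0% of all Rab genes, sets of unrelated genes would often be mixed as well. Whether paralogs differ more or less often than unrelated genes was not tested. In the Rab5 set Rab5a carried an interval, Rab5b did not, and that of Rab5c lay at Hspb9. Rab6a, which is widely expressed, carried one and Rab6b, known mainly from neurons, did not. Rab11a carried one, and its relatives Rab11b and the epithelial Rab25 did not. Among the exocytic relatives Rab8a and Rab10 did and Rab8b and Rab13 did not, in the Rab3 set only Rab3a did, and in the remaining mixed sets the carriers were Rab2a, Rab7 and Rab40c. Expression was not measured in this series, so no interval can be set against the transcript level of a paralog.

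Rab genes with an interval had more CpG in their promoters than those without. The first listed promoter window of each gene (300 bp) held a median of 26.5 CpG dinucleotides in the 22 Rab genes with an interval, with a range of 13 to 43, and 16 in 26 Rab genes without, with a range of 5 to 42. The GC content had medians of 63.5 and 58.5%. The same was seen over all genes, with medians of 24 CpG in those with an interval and 7 in those without, so this is a property of the whole list. Of 35 Rab genes with 15 or more CpG, 21 carried an interval (60.0%, against 52.7% of all such genes). Of 13 with fewer, 1 did (7.69%, against 11.0%). That gene was Rab34, whose first window held 13 CpG and whose second, shown above, held 25.

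Within the CpG-rich class, 14 Rab genes had no interval: Rab2b, Rab3d, Rab4b, Rab5b, Rab6b, Rab8b, Rab9b, Rab13, Rab15, Rab23, Rab27a, Rab33b, Rab39 and Rab40b. CpG count did not always order the members of a paralog set. Rab6b without an interval had 42 CpG and Rab6a with one had 29. Rab8b and Rab13 (24 and 25 CpG) exceeded Rab8a (23 CpG) but not Rab10 (43 CpG). Rab3d (26 CpG) exceeded Rab3a (18 CpG), while Rab3b (8 CpG) and Rab3c (11 CpG) did not. In 3 other sets the genes with an interval had the higher counts. The Rab11 set had 16 CpG at Rab11a, 12 at Rab11b and 9 at Rab25. The Rab40 pair had 36 at Rab40c and 19 at Rab40b. The Rab5 set had 30 at Rab5a, 23 at Rab5c and 15 at Rab5b, but the interval of Rab5c lay at Hspb9 and not at this promoter.

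**Figure D3:**
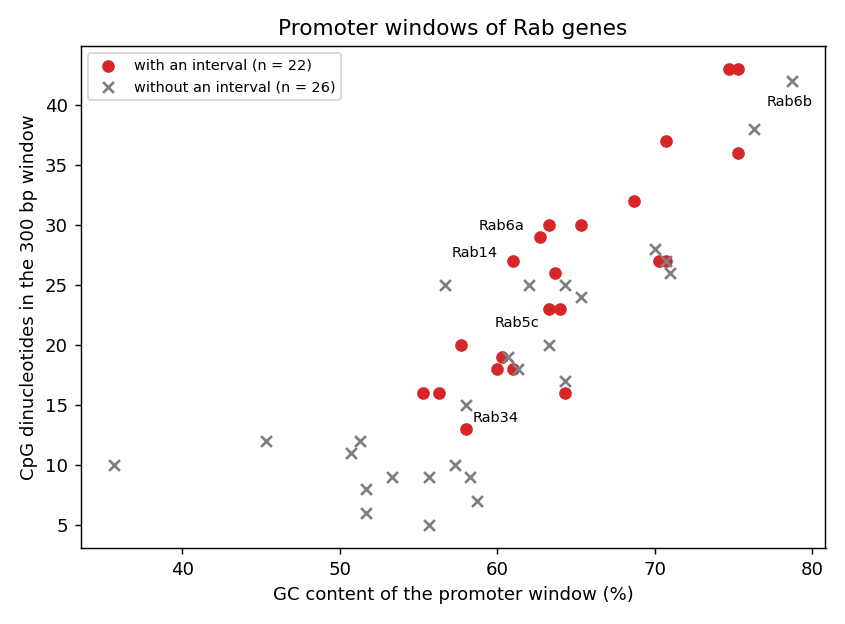
CpG dinucleotides (vertical axis, count) against GC content (horizontal axis, %) of the first listed 300 bp promoter window of 48 Rab genes, with (red dots, n = 22) and without (grey crosses, n = 26) an ARID4B interval. Windows with fewer than 15 CpG hold 12 genes without an interval and 1 with, Rab34, while windows with 15 or more hold 21 with and 14 without.

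Short motifs of promoter-binding factors were then searched in the first window on both strands. The GGGCGG capitalised above for Rab34 lies in its second window and is not counted here. Genes were grouped by the count above, so a first window need not lie under the interval, as at Rab5c and Rab12. GGGCGG, the core of Sp and KLF sites, was in the first window of 18 of 22 Rab genes with an interval and 16 of 26 without. It was in 46.3% of all promoters in the table (71.2% of those of genes with an interval). CCAAT, the NF-Y box, was in 13 of 22 and 10 of 26 (39.2% of all, 35.7% of those of genes with an interval). CCGGAAG, an ETS site, was in 4 of 22 (18.2%) and 1 of 26 (11.9% of all, 18.8% of those of genes with an interval). The E-box CACGTG was also in 4 of 22 (Rab5a, Rab20, Rab21 and Rab24) and in 1 of 26 (Rab23), against 7.91% of all promoters and 11.3% of those of genes with an interval. TGACGTCA, the CREB site, was in 1 and 1 (2.33% of all, 3.57% of those of genes with an interval). The NRF1 letters GCATGCGC were in 1 and 1 (3.60 and 5.64%). The E2F letters TTTCCCGC were in 1 and 0 (1.46 and 2.31%), the 1 being Rab5c, whose interval lay at Hspb9. The motifs can overlap a CpG or each other, matches are letters and not shown sites, and the counts of 1 to 4 are too few to compare.

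Genes that serve the Rab cycle carried intervals at 50% or more of their members in 3 of the 4 lists of regulators, beside 30.7% of all protein-coding genes. Of 7 genes for prenylation, delivery and extraction 4 did (57.1%), Rabif (172.37), Gdi2 (110.48), Rabggta (91.21) and Rabac1 (70.16). Gdi2 encodes an inhibitor that extracts inactive Rabs, and Rabggta encodes the alpha subunit of the enzyme that prenylates them. Rabggtb, its beta subunit gene, and the escort protein genes Chm and Chml had none. Of 48 exchange factor genes 24 carried an interval (50%). The best were at Ankrd27, an exchange factor for Rab21 (322.83, shared with Rgs9bp), Dennd4c, one for Rab10 (302.40), Ric1, whose product with that of Rgp1 activates Rab6 (237.48), and Trappc10, a subunit of the TRAPP complex (218.29). Rabgef1, an activator of Rab5, had none.

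GTPase-activating protein genes carried intervals at 23 of 42 (54.8%, with 30.7% over all genes). Sgsm2 had the highest score in any of these lists of regulators (439.70, shared with Tsr1), followed by Tbc1d4, which acts on Rab10 (271.11), Tbc1d12 (270.82) and Tbc1d24 (266.74, shared with Ntn3). Of 42 effector genes 18 carried one (42.9%, with 30.7% over all genes), at Rilpl1 (327.88), Rab11fip3 (292.74), Rab11fip5 (217.63) and Uso1, the tether recruited by Rab1 (198.38, shared with G3bp2) first. All 5 genes of the Rab11-binding FIP family were among them, with scores from 135.97 to 292.74, a family singled out after its values were seen. Eea1, the tether recruited by Rab5, had 99.61, and its relatives in endosome fusion Rabep1 and Rabep2 had 165.39 and 195.81. Appl1, Appl2 and Rbsn, also partners of Rab5, had none.

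Together 69 of 139 regulator genes (49.6%) carried an interval, beside 23 of 59 Rab genes (39.0%) and 30.7% of all protein-coding genes. With only the 1000 bp either side of the record's ends counted, regulators (41.0%) and Rab genes (37.3%) lay closer, beside 27.1% of all genes. The related GTPase families gave 16 of 29 Arf and Arl genes (55.2%) and 14 of 28 Ras genes (50%). Their best scores were at Arf6, which controls traffic at the plasma membrane (507.84), Arf3 (406.08), Arf1 (403.22), Arl8a, a lysosomal GTPase (375.20), and Rasl11b (293.22). All of these but Rasl11b exceeded the best score of a Rab gene. Whether the Rab share differs from these was not tested. In CpG-rich promoters the values were 21 of 35 Rab genes (60.0%), 45 of 84 regulators (53.6%) and 22 of 36 genes of the Arf and Ras families (61.1%), beside 52.7% of all such genes. With fewer than 15 CpG they were 1 of 13 (7.69%), 11 of 34 (32.4%) and 2 of 10 (20%), beside 11.0% of all such genes. Among genes not in the promoter table they were 1 of 11 (9.09%), 13 of 21 (61.9%) and 6 of 11 (54.5%), beside 30.4%.

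**Figure D4:**
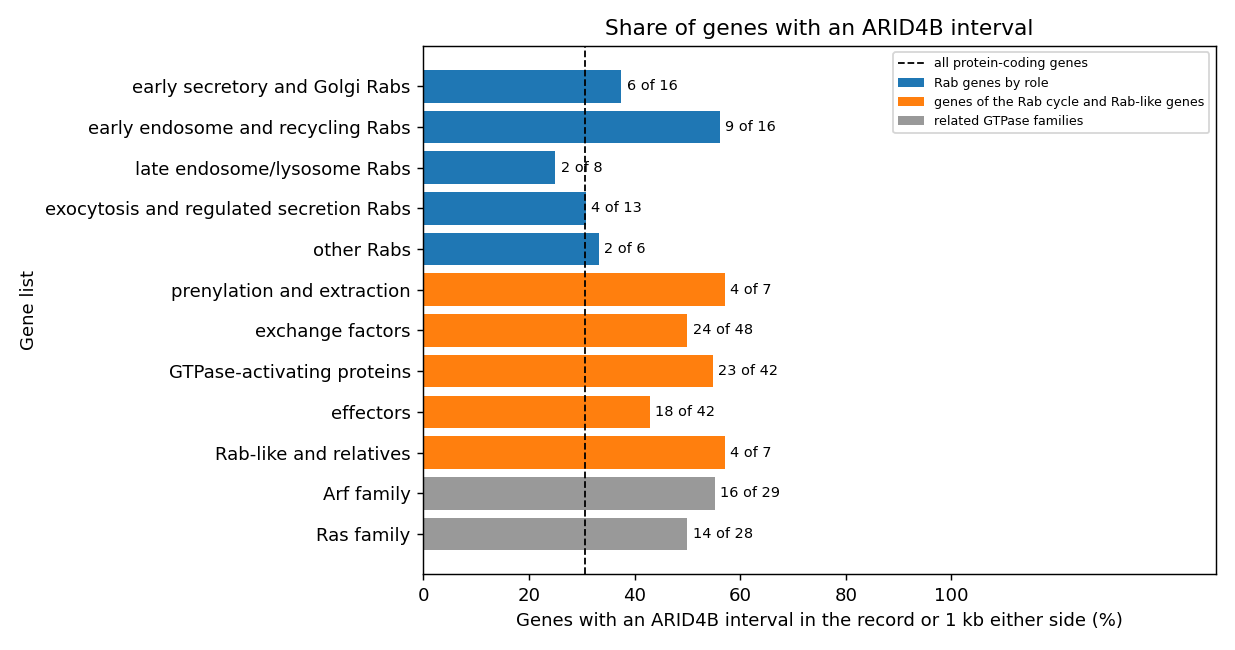
Share of genes with an ARID4B interval in the record or 1 kb either side (horizontal axis, %) for Rab genes by role (blue), genes of the Rab cycle and Rab-like genes (orange) and related GTPase families (grey), with the share of all protein-coding genes (30.7%) as a dashed line and the counts beside the bars. Early endosome and recycling Rabs (9 of 16) had the highest share of the Rab groups and late endosome and lysosome Rabs (2 of 8) the lowest. The X-linked Rab9 and Rab9b are among the latter, and Rab33a and Rab39b among the early secretory Rabs. Of all X-linked genes 3% carried an interval.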

How the data were processed

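ChIP-seq intervals of 1 ARID4B library, with 1 input library as control, were analysed. BWA, MACS and build mm9 are named, per the submitters' processing notes; no source used here gives their versions, parameters or filters. The score of each interval is the authors' deposited value. The deposited list calls it a p-value, but every value exceeds 1, and its scale is not stated. The list is named for mm10, and positions were read as GRCm38: 62.0% of the intervals overlapped a RefSeq promoter window in place, and 1.98 to 2.43% when shifted by 5 or 200 kb.

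Intervals were matched to RefSeq GRCm38.p6 gene records with Python 3.11.15 and pandas 2.3.3, and the overlap step was tested on simulated data. Positions count from 1. A gene with several intervals was given the best-scoring one. A gene's first promoter window is the one at its outermost listed start. The 48 Rab genes with a promoter window were matched by symbol, and Rab41 of the fixed lists matched no gene. Protein sequences were not used here. The members and lists were chosen with earlier results of these data known, and the CpG and promoter-window counts, the FIP family and the single unmarked genes after these values were seen. The rule for named genes took every Rab gene, with coordinates for the 8 best and 3 lowest scores, and up to 4 best members of each other list. Alternatives changed the score limit, the flank, the overlap, shared intervals and the chromosomes. Some planned list members are not reported here. No test was run.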

Additional observations from a re-analysis of the deposited data

How the results depend on the processing

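With only intervals scoring above the median of the list, 12 of 59 Rab genes (20.3%), 36 regulators (25.9%), 18 genes of the Arf and Ras families (31.6%) and 3649 of all genes (16.7%) carried an interval. With scores of at least 100 the Rab count was 14 (23.7%, 22.0% of all genes). These alternatives use fewer intervals by construction, and the exocytosis Rabs then had none. The other 7 alternatives gave 19 to 27 Rab genes. A flank of 0 bp lost Rab5c (37.3%, 29.6% of all genes). A flank of 5000 bp added Rab4b, Rab19, Rab25 and Rab40b (45.8%, 33.5% of all genes). The 1000 bp either side of the record's ends alone lost Rab21. That left 37.3% of Rab genes, 41.0% of regulators, 52.6% of Arf and Ras genes and 27.1% of all genes. Leaving out shared intervals lost Rab1b, Rab5c, Rab6a and Rab24. The shares were then 32.2% of Rab genes, 37.4% of regulators, 43.9% of Arf and Ras genes and 22.4% of all genes. Midpoints, an overlap of at least 0.5 of the interval and autosomes only kept all 23. The midpoint rule left the median score at 131.38. No paired analysis was possible because each group had 1 library. The unknown depth sets how weak an enrichment could enter the list.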

Other observations

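Genes of Rab-like proteins and relatives outside the naming rule carried an interval in 4 of 7 cases (57.1%), beside 30.7% of all protein-coding genes. Ran, the GTPase of nuclear transport, had the best at chr5:129019314-129021272 with a score of 434.65 (rank 186), above that of every Rab gene. Rabl6 had 158.99 (shared with Ccdc183), and Rabl2 (87.19) and Ift22 (85.23), both known from ciliary transport, scored below the median of all intervals. Rabl3, Rasef and Ift27, the partner of Ift25 in intraflagellar transport, had none.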
